A study of Mus musculus with 4 samples.

Results

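Rmrp, Rnu3a, Rpph1, Terc, Malat1 and Neat1 are noncoding RNAs that act as RNA, as ribozymes, guides, templates or scaffolds of nuclear bodies. They were taken by gene symbol, and all 6 were among the 24026 genes of the expression table. They were selected on their measured RPKM, as RNAs at or near the top of the table together with related structural RNAs, so their levels are given as a description, with no test, while the difference between the alleles was tested. 5 of the 6 had reads, and Terc was listed at 0 in all 8 columns. The libraries came from F123-ESCs, a male hybrid mouse embryonic stem cell line with maternal S129 and paternal CAST chromosomes, in which reads covering strain differences can be assigned to an allele. There was 1 group, of 4 untreated libraries labelled replicates 1 to 4. According to the study's methods, the line was kept on inactivated feeder fibroblasts and passaged onto gelatin without feeder cells before harvest. The cells were harvested about 48 hours after plating. Each library gave an S129 and a CAST value for every gene. The labels do not say whether the libraries came from separate cultures. All libraries share 1 cell line, so strain and parent of origin cannot be told apart, and no other condition was compared. The p-values measure only the spread between these 4 libraries, which may be technical.

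Rmrp is the RNA of RNase MRP, which cuts precursor ribosomal RNA, and Rpph1 is the related RNA of RNase P, which trims the 5′ ends of tRNA precursors. Rnu3a encodes a U3 small nucleolar RNA, which pairs with precursor ribosomal RNA and is needed for the early cuts that release the small subunit RNA. Terc is the template of telomerase. Malat1 and Neat1 are long neighbouring RNAs, retained in nuclear speckles and, for the long form of Neat1, forming the core of paraspeckles. RNase P cuts the 3′ ends of Malat1 and of long Neat1, which are protected by a triple helix in place of a poly(A) tail. Rmrp, Rpph1, U3 and mature Terc also lack the poly(A) tail of an mRNA, and the libraries were made from RNA enriched for poly(A).

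The annotated transcripts (GENCODE M21, build mm10) are shown because their overlaps and copies bear on which reads could be counted. Rmrp (ENSMUSG00000088088) lies at chr4:43492788-43493058 on the minus strand and is 271 nt long. The capitals mark nt 1 to 159, which Ccdc107 overlaps on the other strand.
Rmrp: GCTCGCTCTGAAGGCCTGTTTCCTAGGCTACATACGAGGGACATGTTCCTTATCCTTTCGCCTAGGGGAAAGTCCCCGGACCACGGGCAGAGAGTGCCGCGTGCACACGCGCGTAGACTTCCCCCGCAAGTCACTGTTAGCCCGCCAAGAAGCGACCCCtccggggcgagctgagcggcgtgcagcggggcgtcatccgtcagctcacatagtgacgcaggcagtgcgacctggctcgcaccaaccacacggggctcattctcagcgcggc
Rpph1 (ENSMUSG00000092837) lies at chr14:50807449-50807767 on the minus strand and is 319 nt long, of which nt 1 to 300, chr14:50807468-50807767, are printed. The capitals mark nt 36 to 268, which are also an exon of a transcript of Ccnb1ip1 on the same strand.
Rpph1: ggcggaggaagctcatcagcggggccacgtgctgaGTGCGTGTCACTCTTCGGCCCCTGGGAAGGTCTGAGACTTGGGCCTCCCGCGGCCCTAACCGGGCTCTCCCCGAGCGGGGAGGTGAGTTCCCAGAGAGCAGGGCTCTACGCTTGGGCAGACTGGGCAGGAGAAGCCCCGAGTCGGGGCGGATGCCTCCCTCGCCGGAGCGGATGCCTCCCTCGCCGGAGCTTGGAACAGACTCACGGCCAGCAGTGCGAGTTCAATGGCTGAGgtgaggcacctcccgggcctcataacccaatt

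Rnu3a (ENSMUSG00000106147) lies at chr10:40258467-40258679 on the plus strand, and its 213 nt are set beside the copy Rnu3b1 at chr11:87443237-87443452 on the plus strand. Capitals mark the bases that differ in a pairwise alignment of 219 columns, which held 23 mismatches and 9 gap columns, an identity of 85.4%.
Rnu3a: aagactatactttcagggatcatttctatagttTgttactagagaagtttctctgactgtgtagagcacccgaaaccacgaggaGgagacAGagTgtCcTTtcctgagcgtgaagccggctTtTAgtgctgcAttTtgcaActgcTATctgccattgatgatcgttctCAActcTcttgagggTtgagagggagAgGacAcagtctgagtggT
Rnu3b1: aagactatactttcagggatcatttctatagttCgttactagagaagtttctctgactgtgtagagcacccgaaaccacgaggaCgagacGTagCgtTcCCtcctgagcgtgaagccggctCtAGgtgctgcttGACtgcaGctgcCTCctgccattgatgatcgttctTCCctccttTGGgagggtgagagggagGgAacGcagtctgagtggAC
The annotation held 10 other named copies, under 17 gene identifiers, that aligned over at least 90% of Rnu3a, at 75.7% to 86.0% identity in local alignments. None of these copies was listed in the expression table. Rmrp and Rnu3a each had a second identifier for an identical transcript, also not listed. Over at least 90% of their length, Rpph1 aligned to Gm25694 at 74.7% and Terc to 1600017P15Rik at 81.1% identity, neither of them listed. How reads matching several places were counted is not given in the sources used here. The values of Rnu3a, Rmrp, Rpph1 and Terc are uncertain to that extent.

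Malat1 (ENSMUSG00000092341; chr19:5795690-5802672, minus strand, 6983 nt) and Neat1 (ENSMUSG00000092274; chr19:5824708-5845478, minus strand, 20771 nt) lie 22035 bp apart. The stretches printed are nt 6642 to 6691 of Malat1, chr19:5795982-5796031, and nt 20702 to 20771 of Neat1, chr19:5824708-5824777. Capitals mark runs of at least 10 bases found in both stretches.
Malat1: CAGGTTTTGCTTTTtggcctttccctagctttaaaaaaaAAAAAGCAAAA
Neat1: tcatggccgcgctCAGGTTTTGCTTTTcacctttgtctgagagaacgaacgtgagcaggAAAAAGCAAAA
Malat1 held the longest run of A of the 6 transcripts, 12 bases at nt 6674 to 6685, and 4.07% of 141767 annotated transcripts held a run as long. The longest run was 7 in Neat1, 5 in Terc, 3 in Rmrp and Rnu3a and 2 in Rpph1. Runs of 3 or more are found in 97.8% of all transcripts. Whether these runs were primed or captured in the libraries was not tested.

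Terc (ENSMUSG00000064796; chr3:96414437-96414859, minus strand, 423 nt) is shown by its first 60 nt, chr3:96414800-96414859. Capitals mark the 9 nt, 28 to 36, that are complementary to the telomere repeat.
Terc: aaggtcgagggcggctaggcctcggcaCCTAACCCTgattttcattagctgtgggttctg

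Values are RPKM, allele-assigned reads divided by the transcript length and by the total reads of the allele and library. Only reads covering a strain difference are assigned, so a level also depends on how many such differences a gene holds. Those numbers were not examined, so ranks and ratios between genes describe the listed values and not amounts of RNA. An allele difference likewise rests on the reads at these positions alone. The level of both alleles is the mean of the S129 and CAST values. Reads assigned to both alleles summed to 34120416 in replicate 4 and to between 48178422 and 56627972 in the other 3 libraries. For a description of the cells, 8 marker genes of pluripotent cells summed to 7698 to 9330 RPKM per library. All were above 0, as were the markers of other cell types given below, so this alone does not check the state of the cells. Most of the sum of the pluripotent markers was Dppa5a at 7111 RPKM ± 907 (SD, n = 4). The others lay between 29.5 RPKM for Pou5f1 and 512 RPKM for Zfp42, with Nanog at 84.5 RPKM. 8 markers of feeder fibroblasts summed to 179 to 225 RPKM, most of it Col1a2 at 166 RPKM ± 17.5 (SD, n = 4), followed by Postn at 15.4 RPKM, Col3a1 at 11.4 RPKM and Col1a1 at 5.68 RPKM, with the other 4 between 0.0462 and 1.57 RPKM. 5 markers of primitive endoderm summed to 46.5 to 53.4 RPKM, of which Dab2 gave 44.2 RPKM ± 2.85 (SD, n = 4) and the other 4 between 0.326 and 3.31 RPKM. Their part in the results was not tested. In bulk RNA, fewer cells of a type and less RNA per cell cannot be told apart.

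Rmrp, the RNA of RNase MRP, had the highest level of the 24026 genes, at 93586 RPKM ± 5912 (SD, n = 4) over both alleles. On the S129 allele, it was at 97358, 87146, 86527 and 84273 RPKM in replicates 1 to 4. On the CAST allele, the values were 107049, 96800, 96274 and 93262 RPKM. CAST was above S129 within each library, while the ranges of both alleles overlapped, and replicate 1 was highest on both. Rmrp took 2.53% ± 0.160 (SD, n = 4) of all allele-assigned reads, more than any other gene, although it is 271 nt long.

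Rnu3a, the U3 RNA, followed at 30271 RPKM ± 11412 (SD, n = 4). Its CAST values were 88526, 41940, 63288 and 42117 RPKM in replicates 1 to 4. Its S129 values were 2618, 1018, 1525 and 1136 RPKM. The alleles thus shared no part of their ranges, and replicate 1 was highest and replicate 2 lowest on each of them. Rnu3a ranked 2 by RPKM and 6 by reads, with 0.633% ± 0.240 (SD, n = 4) of all reads.

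Malat1 had 508 RPKM ± 52.8 (SD, n = 4) and ranked 190 by RPKM but 24 by reads, since its transcript is long. The S129 values were 539, 553, 586 and 459 RPKM in replicates 1 to 4. The CAST values were 480, 504, 534 and 413 RPKM. S129 was the higher allele in every library, by less than the libraries differed among themselves, and replicate 4 was lowest on both alleles.

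Rpph1, the RNA of RNase P, was at 260 RPKM ± 85.9 (SD, n = 4), rank 387 of all genes. On the S129 allele, it measured 493, 322, 319 and 673 RPKM in replicates 1 to 4. On the CAST allele, it measured 87.9, 59.6, 65.1 and 64.5 RPKM. Every S129 value exceeded every CAST value, and replicate 4 stood highest on S129 but not on CAST. Without replicate 4, the mean over both alleles was 224 RPKM. Although RNase P and RNase MRP share most of their proteins, their RNAs were listed at levels far apart, with Rpph1 below Rmrp in all 8 columns.

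Neat1, the scaffold of paraspeckles, was the lowest of the RNAs with reads, at 5.44 RPKM ± 0.992 (SD, n = 4), rank 7756. Its S129 values were 5.59, 6.04, 6.89 and 4.21 RPKM in replicates 1 to 4. Its CAST values were 5.08, 5.53, 6.10 and 4.06 RPKM. Replicate 4 was again lowest on both alleles and replicate 3 highest. The deposited values divide the reads by the 20771 nt of the long transcript. Divided by the 3004 nt of the annotated short transcript, the same reads gave 37.6 RPKM, an alternative added after the data were seen, and the table does not separate the forms. By reads, Neat1 ranked 1538 and Rpph1 2329, the reverse of their order by RPKM.

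**Figure D1:**
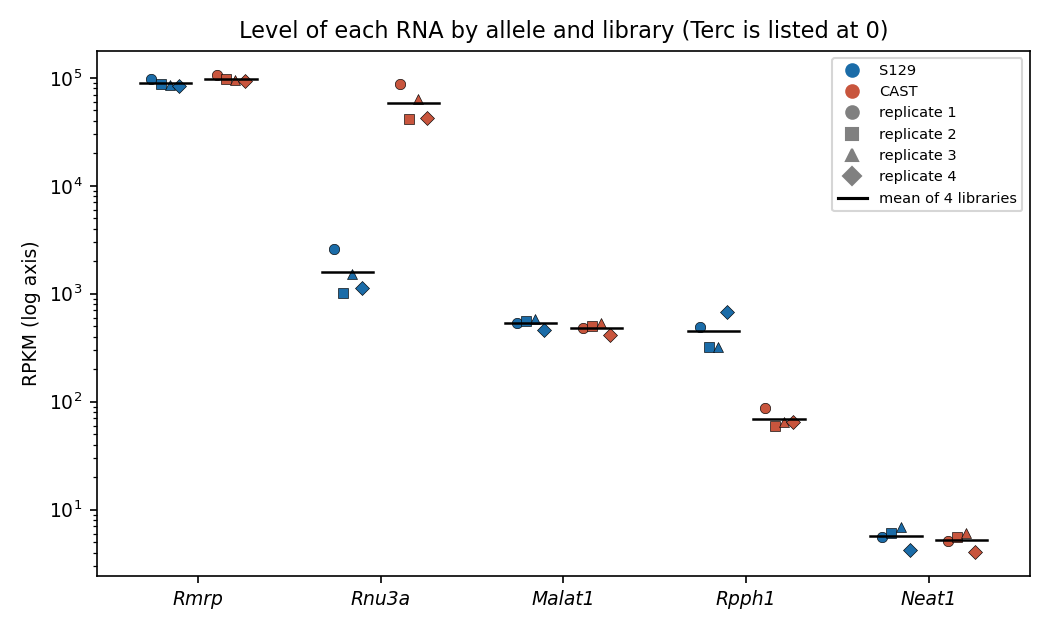
RPKM (log axis) of each RNA in each library, with the S129 allele in blue, the CAST allele in red, 1 symbol per replicate and a bar at the mean of 4 libraries. The alleles of Rnu3a and Rpph1 are separated in opposite directions, with means of 1574 against 58968 RPKM and 452 against 69.3 RPKM, while those of Rmrp, Malat1 and Neat1 overlap.

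The order of the levels was Rmrp, Rnu3a, Malat1, Rpph1 and Neat1 in every library when both alleles were averaged. The ratio of Rmrp to Rnu3a varied between 2.24 and 4.28 across libraries, and that of Rnu3a to Malat1 between 40.6 and 89.5. The ratio of Malat1 to Rpph1 lay between 1.18 and 2.92. The order of this pair depended on the allele. On S129, Malat1 exceeded Rpph1 in 3 of 4 libraries, with a ratio down to 0.682 in replicate 4, whereas on CAST the ratio lay between 5.46 and 8.46. Rmrp and Rnu3a were also much closer on CAST, where their ratio was 1.21 to 2.31, than on S129, where it was 37.2 to 85.6.

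Terc, the telomerase template, was listed at 0 in all 8 columns, as were 3783 of the 24026 genes. These included Rpp14, which belongs to RNase P, and Amd1, an enzyme of polyamine synthesis, so that a 0 in this table cannot be read as absence of the RNA. The catalytic subunit of telomerase, Tert, was listed at 9.27 RPKM ± 0.715 (SD, n = 4). The genes listed nearest to Terc gave no values to set beside it, since BC107364 was listed at 0 and Gm26689 had 27 reads in all.

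The RNAs differed in how far the libraries lay apart. The SD of log2(RPKM + 0.1) over 4 libraries was 0.089 for Rmrp, below that of 80.0% of the 13341 tested genes, whose median was 0.138. It was 0.52 for Rnu3a and 0.47 for Rpph1, and 1.95% of the tested genes had a larger SD than Rnu3a. Malat1, at 0.16, lay near the median, and Neat1, at 0.27, was exceeded by 9.52%. Counting error alone would give Rnu3a an SD of 0.018 on the S129 allele, where 0.61 was observed, and Rpph1 0.026 on the S129 allele, where 0.52 was observed. Whether the spread between these libraries arose in the cells or in library preparation was not tested.

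The libraries were not ordered alike for the different RNAs. Replicate 1 lay 0.66 above the mean of 4 libraries on the log2 scale for Rnu3a and 0.13 above it for Rmrp. Replicate 4 lay 0.56 above the mean for Rpph1, whereas its departure was -0.41 for Rnu3a, -0.37 for Neat1 and -0.22 for Malat1. Replicate 4, the library with the fewest reads, was hence highest for the RNA of RNase P and lowest for Malat1, Neat1 and Rmrp, whose departure was -0.07. For Nop10 and Nhp2, small proteins of telomerase and box H/ACA particles, it was likewise the highest library, at 506 and 614 RPKM. For the other telomerase proteins and assembly factors except Tert, replicate 4 was the lowest, among them Gar1 at 21.6 RPKM and Dkc1 at 41.7 RPKM. For Fbl, the methyltransferase of U3 particles, it was the lowest, at 253 RPKM against 410 to 473 RPKM in the others.

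**Figure D2:**
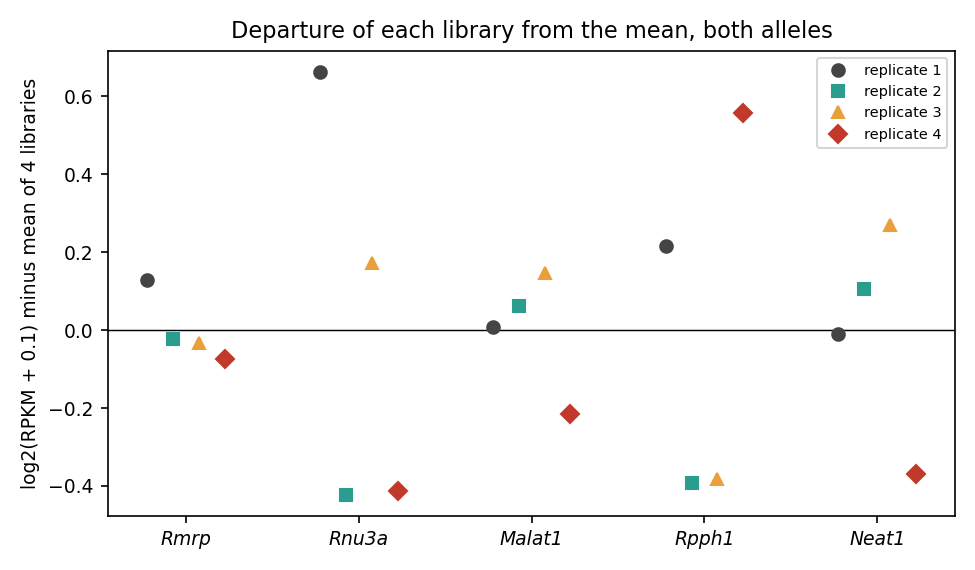
Log2(RPKM + 0.1) of both alleles in each library minus the mean of the 4 libraries, with 1 symbol and colour per replicate. Rmrp stays within 0.13 of the mean, whereas Rnu3a runs from -0.42 to 0.66 and Rpph1 from -0.39 to 0.56, and replicate 4 is the lowest for Rmrp, Malat1 and Neat1.

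The alleles were compared by limma within each library as the difference of log2(RPKM + 0.1), S129 minus CAST. Tested were the 13341 genes whose S129 and CAST means summed to at least 1 RPKM. Of these genes, 62.7% were called at an adjusted p below 0.05, 31.4% higher on S129 and 31.3% higher on CAST. The tested genes include X-linked ones, which this male line carries on the maternal S129 side alone. With autosomal genes alone, an alternative added after the data were seen, 3724 of 12869 were called higher on S129 and 4179 higher on CAST. When the alleles were rescaled to the same sum over autosomal genes, the median of all genes shifted by 0.10. The calls then split into 5125 genes for S129 and 3074 for CAST, instead of 4187 and 4182. That sum includes Rnu3a, at 58968 RPKM on CAST and 1574 RPKM on S129, and Rmrp, at 98346 and 88826 RPKM. The rescaling is therefore not independent of these RNAs. All 5 RNAs with reads were called, Rpph1, Malat1 and Neat1 as higher on S129 and Rmrp and Rnu3a as higher on CAST. A call was thus common in this comparison, and its size separates the RNAs better. A difference of at least 4-fold was called for Rnu3a and Rpph1, as for 6.76% of all tested genes, X-linked genes included. The ranges of the alleles did not overlap for the same pair, as for 45.6% of all tested genes.

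Rnu3a was almost entirely read from the CAST allele. The difference was -5.08, -5.36, -5.37 and -5.21 on the log2 scale in replicates 1 to 4, with a mean of -5.26 (SE 0.064, adjusted p = 2.97e-06, limma), or 38.3-fold. A lower difference was found in 4 of the 13341 tested genes. The S129 allele held 2.65% ± 0.245 (SD, n = 4) of the reads, against a median of 51.0% over 551 genes of chromosome 10. Here and below, chromosome medians and shares within 2 Mb are taken over protein-coding genes with at least 400 reads in all. In counts, S129 had 4212 to 16042 reads per library and CAST 149966 to 525244, so counting error was small on the lower allele too. Counts do not show whether the S129 reads came from Rnu3a itself. The share lay between 2.44% and 2.96% in all 4 libraries even though the level itself differed 2.12-fold between them.

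The genes around Rnu3a did not show this difference. Gtf3c6, a subunit of the polymerase III factor TFIIIC whose start lies 358 bp away on the other strand, was higher on S129 by 0.23 (SE 0.044, adjusted p = 0.0105, limma), with 55.2% of its reads from S129. Among 23 genes within 2 Mb of Rnu3a, the S129 share ranged from 22.6% to 62.6%, with a median of 51.3%. Amd1, the nearest listed gene on the other side, was listed at 0. U3 copies such as the one printed above differ from Rnu3a at the marked bases, and the part of their reads in either allele's value was not tested.

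Rpph1 showed the opposite imbalance in its allele-assigned reads. How many strain differences assigned the reads of Rpph1 or Rnu3a was not examined. S129 was higher by 2.49, 2.43, 2.29 and 3.38 on the log2 scale in replicates 1 to 4, a mean of 2.65 (SE 0.21, adjusted p = 0.000627, limma), or 6.26-fold. Replicate 4 was the highest, with an S129 share of 91.6% (exact 95% interval 90.7% to 92.4%, counting error only) against 83.6% to 85.3% in the others. A Dixon outlier rule run on 25 quantities of the RNAs, this share and this difference among them, flagged 0. Without replicate 4, the difference was 2.40 and still called. On chromosome 14, the median share was 50.3% over 385 genes. A larger difference towards S129 was found in 602 of the tested genes, X-linked genes included.

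Of 3 neighbours of Rpph1, 2 were also higher on S129, by smaller amounts. Ccnb1ip1, a meiotic crossover gene that shares the exon marked in the sequence, was higher on S129 by 1.17 (SE 0.066, adjusted p = 0.000237, limma). It had only 436 reads in all, 2.82% of those of Rpph1, and which of the genes a read in the shared exon was counted for is not known here. Parp2, a poly(ADP-ribose) polymerase that starts 73 bp away and is read in the other direction, differed by 0.15 (SE 0.037, adjusted p = 0.0235). Ttc5, 21929 bp away, had a difference of -0.086 that was not called (adjusted p = 0.0830). Among 25 genes within 2 Mb, the S129 share ranged from 37.4% to 71.4%.

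Rmrp differed little between the alleles. The difference was -0.14, -0.15, -0.15 and -0.15 on the log2 scale in replicates 1 to 4, with a mean of -0.15 (SE 0.028, adjusted p = 0.0111, limma), CAST being higher in 4 of 4 libraries. The share of reads from S129 was 48.4% ± 0.0781 (SD, n = 4), next to a median of 50.8% over 740 genes of chromosome 4. With the alleles rescaled to the same autosomal sum, the difference was -0.044 and no longer called (adjusted p = 0.354, limma). That sum includes Rmrp and Rnu3a themselves. Without pairing the alleles of a library, the difference was also not called (adjusted p = 0.159, limma). The ratio of the alleles was thus steady between libraries, while its call depended on the scaling. Ccdc107, which overlaps Rmrp on the other strand, was higher on S129 by 0.76 (SE 0.039, adjusted p = 0.000183), with 0.0893% as many reads as Rmrp. Arhgef39, 3083 bp away, was higher on S129 by 0.15 (adjusted p = 0.0259), and Sit1, 9053 bp away on the other side, had 13 reads in all.

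Malat1 and Neat1, which lie side by side, were both somewhat higher on S129. For Malat1, the differences were 0.17, 0.13, 0.13 and 0.15 in replicates 1 to 4, with a mean of 0.15 (SE 0.029, adjusted p = 0.0122, limma). For Neat1, they were 0.14, 0.12, 0.17 and 0.05, with a mean of 0.12 (SE 0.035, adjusted p = 0.0394). S129 held 53.5% ± 0.223 and 53.1% ± 0.880 (SD, n = 4) of the reads, respectively, and the median of chromosome 19 was 49.6%. Neither was called without pairing the alleles of a library (adjusted p = 0.304 and 0.6), and the call of Neat1 was lost without replicate 1, 2 or 3 (adjusted p = 0.121, 0.124 and 0.139). That of Malat1 was also lost without one of these (adjusted p = 0.0528, 0.0516 and 0.0511), and that of Rmrp without replicate 2 or 3 (adjusted p = 0.0540 and 0.0535). With the alleles rescaled to the same autosomal sum, the differences were 0.25 for Malat1 and 0.22 for Neat1, both called (adjusted p = 0.00483 and 0.0142). Frmd8, 4223 bp from Neat1, had a difference of -0.081 that was not called (adjusted p = 0.0919).

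**Figure D3:**
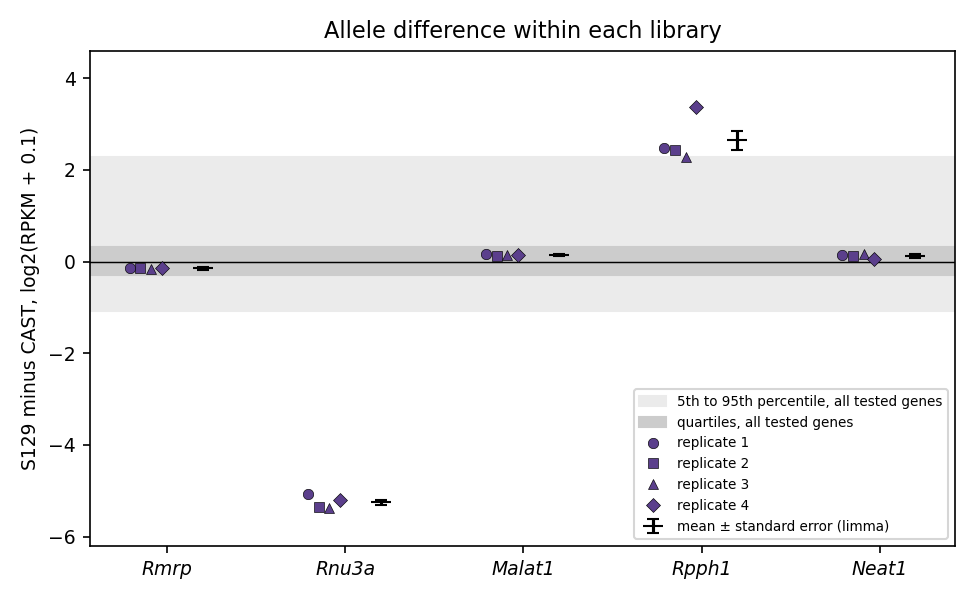
Difference of log2(RPKM + 0.1), S129 minus CAST, in each library, with the mean and its limma standard error in black and the quartiles and the 5th to 95th percentile of 13341 tested genes as grey bands. The bands include X-linked genes. Rnu3a at -5.26 and Rpph1 at 2.65 lie outside the bands in opposite directions, and the means of the other RNAs lie within 0.15 of 0.

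**Figure D4:**
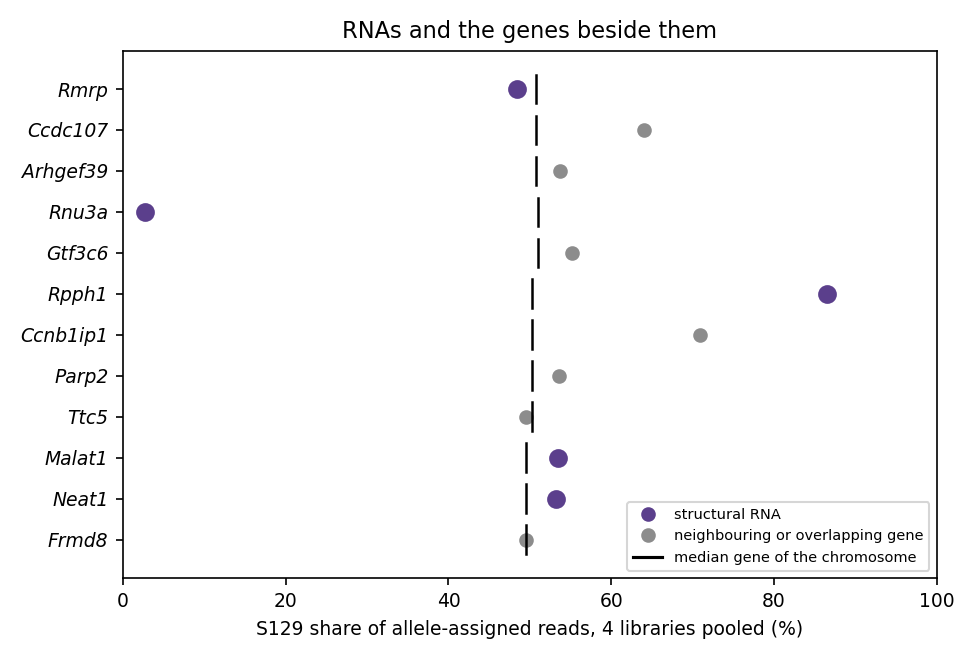
S129 share of the allele-assigned reads, 4 libraries pooled, of each RNA (large points) and of genes beside or overlapping it (small points). The bar is the median over protein-coding genes of the chromosome with at least 400 reads. The share of Rnu3a is 2.71% and that of Gtf3c6 beside it 55.2%, while Rpph1 at 86.5% and the overlapping Ccnb1ip1 at 70.9% both lie above the median.

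The proteins that assemble with these RNAs or act on them were followed as lists, together with other structural noncoding RNAs. Over all lists, 64 genes were tested, 14 of them noncoding RNAs. Of the 64, 22 were called higher on S129 and 21 higher on CAST, next to the 31.4% and 31.3% of all genes. For comparison, the median absolute difference of all tested genes was 0.31.

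RNase P and RNase MRP share most but not all of their proteins. Of 11 proteins taken for either particle, 9 could be tested. Of these, 2 were called higher on S129 and 4 higher on CAST, with a median difference of -0.14. The most abundant was Rpp21 at 160 RPKM ± 20.6 (SD, n = 4), followed by Rpp30 at 72.6 RPKM and Pop7 at 62.5 RPKM, all far below Rmrp. Rpp25 was higher on S129 by 0.95, while Pop4 and Rpp21 were higher on CAST, with differences of -0.86 and -0.70. Rpp14 was listed at 0 and Rpp25l was below 1 RPKM.

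The proteins of U3 particles and their processome partners were called in 8 of 9 cases, 4 in each direction, with a median difference of -0.06. Rrp9, the U3-specific protein, was at 405 RPKM and had a difference of -0.059 that was not called (adjusted p = 0.168, limma). Fbl was at 397 RPKM and Nop58, a core protein of box C/D particles, at 336 RPKM. The largest differences were those of Utp3 at 0.44, Snu13 at 0.41 and Fbl at -0.23, all small beside that of Rnu3a. The 4 CAST calls were lost when replicate 1 was left out, when the alleles were not paired or when they were rescaled.

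Telomerase proteins and assembly factors were measured although Terc was listed at 0. Of 11 tested, 6 were called higher on S129 and 2 higher on CAST. The most abundant were Nhp2 at 553 RPKM, Nop10 at 406 RPKM and Ruvbl2 at 118 RPKM. Dkc1, the pseudouridine synthase of the particle, is X-linked and had 96.3 RPKM on S129 and 0.0516 RPKM on CAST, the only X chromosome of this male line being maternal. Naf1 and Tert were higher on CAST, with differences of -0.86 and -0.42.

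Among paraspeckle proteins, 1 of 11 tested was called higher on S129 and 3 higher on CAST. The single S129 call was Nono, also X-linked, at 689 RPKM on S129 and 0.116 RPKM on CAST. Nudt21 was higher on CAST, with a difference of -0.97, whereas Dazap1 at 159 RPKM and Cpsf6 at 31.5 RPKM were not called. Nuclear speckle proteins gave 2 calls on S129 and 1 on CAST out of 8. Srsf3 at 194 RPKM was higher on S129 by 0.46 and Srrm1 by 0.24, Rnps1 was higher on CAST with a difference of -0.52, and Srrm2 at 126 RPKM and Srsf2 at 74.3 RPKM were not called. With the alleles rescaled to the same autosomal sum, 5 paraspeckle and 6 speckle genes were called higher on S129. Of 3 genes tested for the processing and binding of the Malat1 end, Elac2, which encodes RNase Z, was higher on S129 by 0.32 and Mettl16, which binds the triple helix, higher on CAST with a difference of -0.26. Rpp40 had a difference of -0.14 that was not called (adjusted p = 0.0566).

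Of 39 other structural noncoding RNAs searched, 19 were listed and 14 could be tested, 6 called higher on S129 and 6 higher on CAST. Their levels reached 1638 RPKM ± 228 (SD, n = 4) for Gas5, 1049 RPKM for H19 and 607 RPKM for Snhg1, all below Rmrp and Rnu3a in level. Xist, Tsix and Firre are X-linked and were read from S129, and with autosomal genes alone 3 RNAs were higher on S129. Meg3 was higher on S129 by 2.04. Among short RNAs without a poly(A) tail, Rnu11, of the minor spliceosome, was higher on S129 by 1.80, and Rnu73b was higher on CAST, with a difference of -1.37. Rnu12, also of the minor spliceosome, was at 87.2 RPKM and Snord118, the U8 RNA, at 98.2 RPKM.

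**Figure D5:**
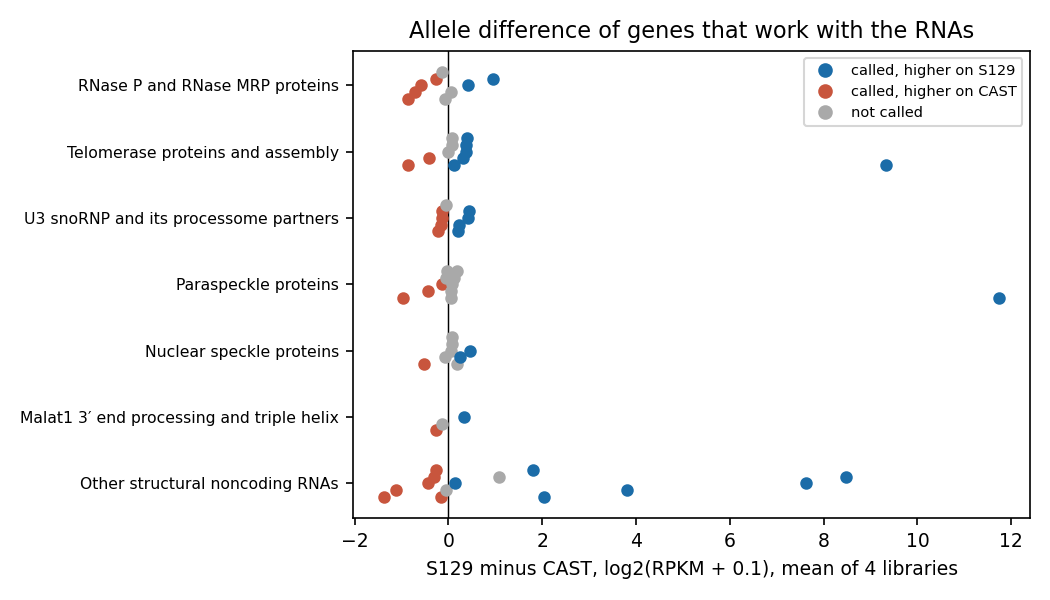
Mean difference of log2(RPKM + 0.1), S129 minus CAST, of each tested list gene, in blue where called higher on S129, in red where called higher on CAST and in grey where not called. Autosomal genes lie between -1.37 and 2.04, and the points beyond are X-linked genes such as Dkc1 at 9.32 and Nono at 11.74.

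The patterns of the RNAs over the 8 columns were compared with those of all genes as Pearson correlations of log2(RPKM + 0.1), a description in which the alleles of a library share that library. For Rmrp, 2 genes reached a correlation of 0.95, Cycs (cytochrome c) at 0.991 and Eef1d, a translation elongation factor, at 0.970, and Gip followed at 0.943. For Rnu3a, 717 genes reached it, led by Ppa2, Dnase2a and Glrx3, and for Rpph1 830, led by Snhg15, Rps13 and Itgb3bp. In both, the 4 columns of an allele lay apart from the 4 of the other. For Malat1, 124 genes reached it, led by Lats2 at 0.985, Pdia4 and Mtf2, and for Neat1 89, led by Washc5 at 0.995, Mfsd14b and Hnrnpa2b1.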

How the data were processed

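Poly(A)-enriched RNA of F123-ESCs was sequenced by the authors in 4 libraries, as stranded 150 bp read pairs. According to the study's methods, ribosomal reads were removed with SortMeRNA 2.1, reads were trimmed with Trimmomatic 0.40 and aligned with STAR 2.6 to an mm10 genome masked at strain differences, and SNPsplit sorted them into S129 and CAST reads. The deposited values are RPKM per gene, allele and library, and the averages over libraries in the same table were not used. The counting program, its annotation and its use of strand are not given in the sources used here.

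RPKM were placed on GENCODE M21 (23995 of 24026 genes matched). Whole reads were recovered from the steps of the RPKM within 0.02 reads for 99.46% of 20243 genes above 0. Totals per allele and library ranged from 16716721 to 28772351. Intervals are exact binomial and cover counting error only. The allele difference was tested with limma 3.58.1 (R 4.3.3) on log2(RPKM + 0.1), S129 minus CAST within a library, since both columns are reads of the same library. Benjamini-Hochberg adjustment was over 13341 genes whose S129 and CAST means summed to at least 1 RPKM. Deviations from the allele means correlated at 0.105 to 0.195 within a library and -0.155 to 0.140 between libraries. The script was tested on simulated data. Sequences were aligned with blastn 2.17.0.

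The RNAs and gene lists were chosen with earlier results of these data known. Named are all 6 RNAs, the listed genes nearest to or overlapping each, the 3 most abundant genes of each list and up to 3 called with the largest difference, and the 3 genes most alike in pattern. A few genes that the rule names are not reported here. Rpp14, Rpp25l, Meg3, Rnu11, Rnu12, Rnu73b, Snord118 and the markers of other cell types fall outside this rule and were named after their values were seen. Alternatives were other pseudocounts, filters, scalings and variance models, unpaired alleles, whole reads and leaving out each library.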

Additional observations from a re-analysis of the deposited data

How the results depend on the processing

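Of 70 allele differences of the 5 RNAs recomputed under other settings, 56 kept both direction and call, and none reversed. The differences of Rnu3a (-5.32 to -5.15) and Rpph1 (2.40 to 2.77) stayed called without any 1 replicate and under every other setting run. For Rmrp, leaving out a replicate gave -0.15 to -0.14 (adjusted p = 0.0540 without replicate 2 and 0.0535 without replicate 3, limma), the rescaled alleles gave -0.044, and without the replicate block the difference of -0.15 was not called (adjusted p = 0.159). For Malat1, leaving out a replicate gave 0.14 to 0.15, and 0.15 without the replicate block was not called (adjusted p = 0.304). For Neat1, leaving out a replicate gave 0.10 to 0.14, and 0.12 was not called without the replicate block (adjusted p = 0.6), without a filter on low values (adjusted p = 0.0907) or with a variance trend (adjusted p = 0.0843). With the alleles rescaled, Malat1 was at 0.25 (adjusted p = 0.00483) and Neat1 at 0.22 (adjusted p = 0.0142), and with the chromosome median taken out Neat1 was at 0.19 (adjusted p = 0.0143). The cause was not tested. The rescaling, to a sum that includes Rmrp and Rnu3a, moved the median of all genes by 0.10. Relative to that median, Rmrp stood at -0.14 before and after the rescaling.

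Without the block, 11 list genes were higher on CAST instead of 21; it changed no other count over all lists or all tested genes by more than 1.5 times. On a single allele, levels were 1574 RPKM (S129) and 58968 RPKM (CAST) for Rnu3a and 452 RPKM (S129) and 69.3 RPKM (CAST) for Rpph1, and with the short transcript Neat1 stood at 37.6 RPKM. With whole reads not divided by the library total, the calls split into 4664 genes for S129 and 3571 for CAST. Among single lists, the processome partners had 0 to 4 genes higher on CAST when a replicate was left out, and with the alleles rescaled the S129 calls went from 1 to 5 for paraspeckle proteins and from 2 to 6 for speckle proteins. Rmrp, Rnu3a and Malat1 had 4212 reads or more on each allele of each library, and Ccnb1ip1 had 14 to 95.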
